A study of Homo sapiens with 5 samples.

Results

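The viral RNA sensors and their cofactors are 10 genes, RIGI, IFIH1, DHX58, DDX60, DDX60L, ZC3HAV1, TRIM25, MAVS, TLR3 and EIF2AK2, out of 20033 protein-coding genes. Peaks were taken inside the gene span or within 10 kb of it (RefSeq, GRCh38.p14, which shares its coordinates with the hg38 build of the peak lists), 24 of 19372 peaks in the 5 lists. The genes were chosen by their role and with these peaks known, and they were set apart by measured values, namely whether an IRF3 peak was listed in control cells, in cells with active Smad3 or in both. IRF3 peak presence is therefore given as a description with no test.

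The data were ChIP-seq peak lists from BT549 cells, a human basal-like breast cancer line, with 1 library per group. Cells stably carried lentiviral HA (the control) or caSmad3, a constitutively active form of the TGF-beta transducer Smad3; whether these were clones or pools is not given in the sources used here. IRF3 was precipitated from HA cells and from caSmad3 cells, both transfected with polyI:C, a synthetic double-stranded RNA, and neither given TGF-beta. Smad3 was precipitated from mock-transfected HA cells and from polyI:C-transfected HA cells, both treated with TGF-beta at 1 ng/ml during 1.5 h, and from polyI:C-transfected caSmad3 cells without TGF-beta. In the Smad3 libraries the cell line and the TGF-beta treatment thus change together between HA and caSmad3 cells and cannot be told apart.

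RIG-I (encoded by RIGI) and MDA5 (encoded by IFIH1) are helicases that recognise viral double-stranded RNA in the cytoplasm and pass the signal through MAVS on mitochondria to kinases that phosphorylate IRF3. TLR3 recognises double-stranded RNA in endosomes and signals through a different adaptor, while the kinase PKR (encoded by EIF2AK2) halts translation when it binds such RNA. Many of these genes are themselves switched on by interferon, through promoter elements that pair GAAA repeats (the interferon-stimulated response element, ISRE).

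RefSeq (GRCh38.p14) gave a promoter sequence for 9 of the 10 genes, all but DHX58. The 8 promoters below are shown because they cover the patterns found: a promoter IRF3 peak in HA cells alone (RIGI, IFIH1, DDX60L and ZC3HAV1), a promoter peak in both libraries (DDX60 and TRIM25), promoter IRF3 peaks in caSmad3 cells alone (MAVS, whose HA peak lay just past the promoter), and an ISRE core with no peak (EIF2AK2). Each runs 5′ to 3′ on the gene's strand from 210 bases before the start through the first 20 bases from it, and capitals mark GAAA pairs that are 1, 2 or 3 bases apart, on either strand; ZC3HAV1 and MAVS have none.
RIGI, chr9:32526177-32526406, minus strand: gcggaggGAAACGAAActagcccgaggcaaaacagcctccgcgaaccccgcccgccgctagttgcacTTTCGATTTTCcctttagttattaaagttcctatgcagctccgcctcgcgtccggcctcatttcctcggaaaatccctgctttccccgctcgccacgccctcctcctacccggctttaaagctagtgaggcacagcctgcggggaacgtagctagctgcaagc
IFIH1, chr2:162318665-162318894, minus strand: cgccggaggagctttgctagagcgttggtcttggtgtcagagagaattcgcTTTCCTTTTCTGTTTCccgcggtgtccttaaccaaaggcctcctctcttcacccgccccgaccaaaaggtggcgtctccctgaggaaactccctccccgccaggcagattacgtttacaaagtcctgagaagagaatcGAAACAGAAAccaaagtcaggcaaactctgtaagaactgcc
DDX60L, chr4:168480473-168480702, minus strand: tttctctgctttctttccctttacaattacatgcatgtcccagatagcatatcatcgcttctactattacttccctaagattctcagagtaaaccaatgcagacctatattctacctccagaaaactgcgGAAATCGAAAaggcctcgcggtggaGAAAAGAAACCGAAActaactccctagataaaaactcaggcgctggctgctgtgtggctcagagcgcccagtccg
ZC3HAV1, chr7:139109701-139109930, minus strand: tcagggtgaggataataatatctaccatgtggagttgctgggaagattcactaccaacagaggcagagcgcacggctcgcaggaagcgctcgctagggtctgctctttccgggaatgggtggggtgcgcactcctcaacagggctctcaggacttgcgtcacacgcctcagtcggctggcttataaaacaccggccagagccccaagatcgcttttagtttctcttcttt
DDX60, chr4:168318733-168318962, minus strand: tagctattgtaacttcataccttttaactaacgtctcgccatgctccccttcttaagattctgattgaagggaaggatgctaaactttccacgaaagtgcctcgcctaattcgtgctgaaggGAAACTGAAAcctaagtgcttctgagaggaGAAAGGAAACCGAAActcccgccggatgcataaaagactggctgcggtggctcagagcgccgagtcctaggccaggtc
TRIM25, chr17:56914030-56914259, minus strand: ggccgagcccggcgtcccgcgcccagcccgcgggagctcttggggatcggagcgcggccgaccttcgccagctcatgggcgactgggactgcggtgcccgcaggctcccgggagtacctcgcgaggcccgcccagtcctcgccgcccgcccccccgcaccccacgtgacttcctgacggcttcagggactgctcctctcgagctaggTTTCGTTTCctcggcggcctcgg
MAVS, chr20:3846624-3846853, plus strand: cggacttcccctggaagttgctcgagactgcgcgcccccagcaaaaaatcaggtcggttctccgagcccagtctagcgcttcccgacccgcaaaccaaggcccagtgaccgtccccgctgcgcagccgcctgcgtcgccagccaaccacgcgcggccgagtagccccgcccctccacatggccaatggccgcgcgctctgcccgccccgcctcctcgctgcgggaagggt
EIF2AK2, chr2:37156961-37157190, minus strand: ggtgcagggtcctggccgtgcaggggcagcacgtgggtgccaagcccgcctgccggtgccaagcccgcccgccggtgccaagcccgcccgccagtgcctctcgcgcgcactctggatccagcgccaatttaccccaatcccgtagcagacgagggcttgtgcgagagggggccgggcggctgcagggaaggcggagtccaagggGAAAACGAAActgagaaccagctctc

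IRF3 peaks were listed at 8 of the 10 genes in HA cells and at 5 in caSmad3 cells. The corresponding shares of all protein-coding genes were 23.5% and 40.5%, so the caSmad3 list reached more genes in total and fewer of these. RIGI, IFIH1, DHX58 and DDX60L had HA peaks of which none shared a base with a caSmad3 peak (control-only). DDX60, ZC3HAV1, TRIM25 and MAVS had at least 1 HA peak that did (kept), and TLR3 and EIF2AK2 had no peak of any of the 5 lists within 10 kb. Among all protein-coding genes 2.32% were control-only and 21.2% kept, so that 9.86% of the genes with an HA peak were control-only, against 4 of 8 here. Peak by peak, 4 of the 13 HA peaks at these genes were shared, where 82.8% of the 4125 HA peaks were. These shares describe the contrast by which the genes were set out and support nothing about it. The files hold positions without heights or read counts, so a missing peak is a site below the calling threshold at an unknown depth and not a measured absence of IRF3.

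**Figure D1:**
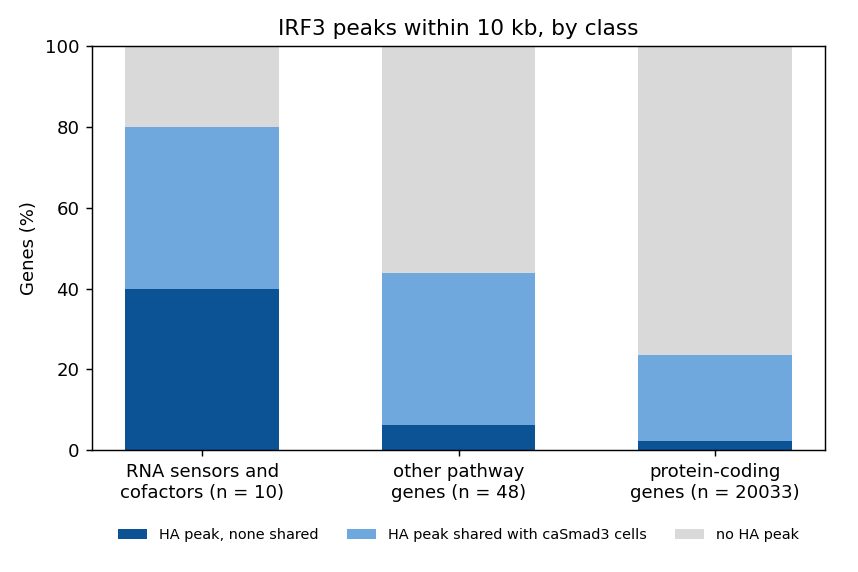
Share of genes (%) with an IRF3 peak within 10 kb in HA cells and none shared with caSmad3 cells (dark blue), that is shared (light blue), or with no HA peak (grey), for the 10 sensors and cofactors, 48 other genes of the pathway and 20033 protein-coding genes. The control-only share is 40% of the sensors, 6.25% of the pathway list and 2.32% of protein-coding genes; each bar rests on 1 library per condition.

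**Figure D2:**
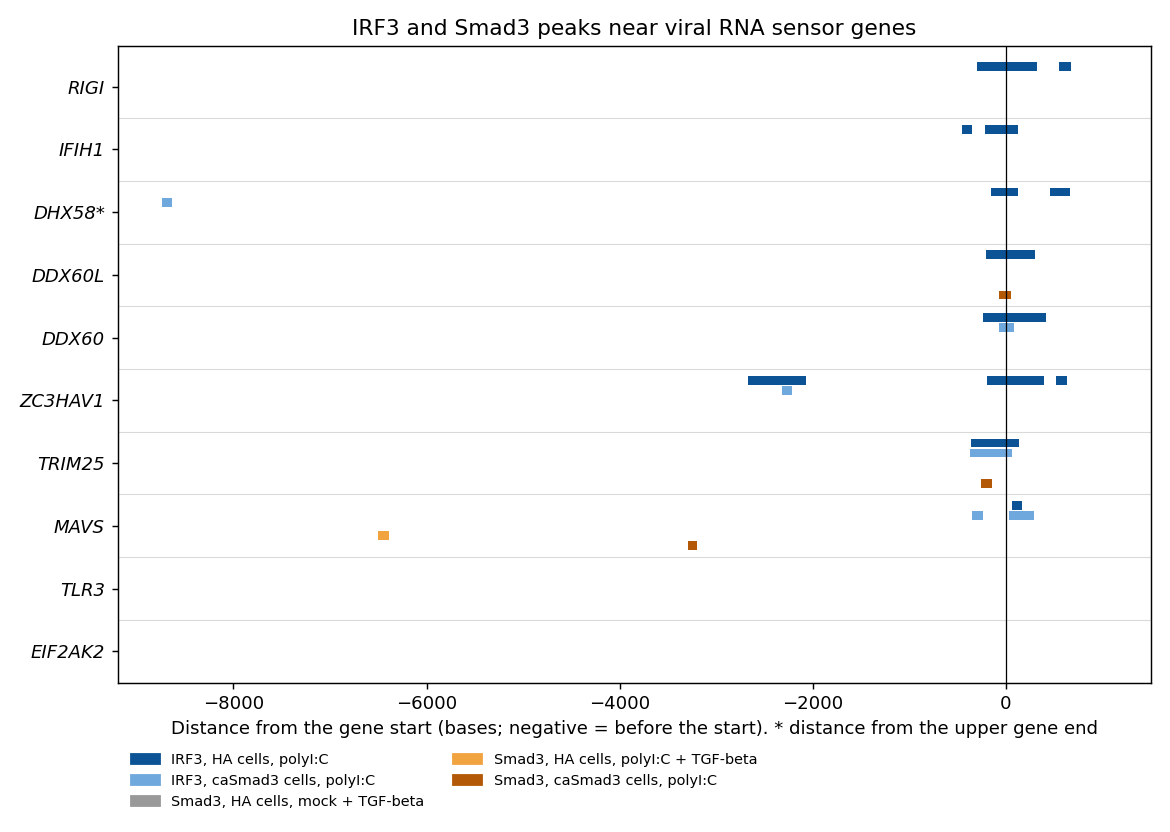
Peaks of the 5 lists (coloured bars, drawn to scale) at each gene, by distance from the gene start in bases, negative before the start; DHX58 is drawn from its upper gene end. Most HA IRF3 peaks (dark blue) lie over or near the start of their gene, and those of DHX58 near its upper gene end. At DDX60, TRIM25 and MAVS, caSmad3 IRF3 peaks (light blue) lie over or near the start. Outside the plotted range is 1 caSmad3 peak on the far side of ZC3HAV1.

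Among the helicase sensors, RIGI (chromosome 9, 32455302 to 32526196, minus strand) had the widest control-only peak. That peak was 618 bases wide (32525876 to 32526493), covered the gene start and all 300 bases of the RefSeq promoter (250 before the start and 50 after), and was the eighth widest of the 710 HA peaks without a counterpart. A second HA peak of 127 bases (32525515 to 32525641) lay inside the gene with its centre 618 bases past the start. The next peaks beyond RIGI were 26141 to 26303 bases above it, nearest to TOPORS and SMIM27, and 46790 to 46890 bases above it, nearest to NDUFB6. Both of those sites were listed in 3 libraries, those of IRF3 in either cell type and that of Smad3 in caSmad3 cells. IRF3 was therefore listed in caSmad3 cells at the neighbouring genes and not at RIGI itself.

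IFIH1 (chromosome 2, 162267074 to 162318684, minus strand) had a control-only peak of 342 bases (162318556 to 162318897) over its start. The neighbouring gene GCA begins 79 bases above IFIH1 (162318763), and the peak covered the lower end of GCA too, so it cannot be given to either gene alone. A second HA peak, of 99 bases (162319035 to 162319133), lay 351 bases above IFIH1 and inside GCA; 99 bases is the narrowest width in each list.

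DHX58 encodes LGP2, a RIG-I-like helicase that lacks the signalling domains of RIG-I and MDA5. At DHX58 (chromosome 17, 42101411 to 42112714), 1 HA peak of 276 bases covered the upper gene end (42112588 to 42112863) and another of 209 bases lay inside the gene (42112052 to 42112260). The caSmad3 list had 1 IRF3 peak in reach, of 99 bases (42121355 to 42121453), but it lay 8641 bases above the gene over the far end of KAT2A. DHX58 thus counted as near an IRF3 peak in caSmad3 cells without any peak at the positions listed in HA cells.

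DDX60 and DDX60L are neighbouring genes of chromosome 4 that encode related helicases, and DDX60 is described as a cofactor of RIG-I-like receptors. They lie 30756 bases apart on the same strand. Their promoters were the most alike of all pairs among the 9, with 56.2% identity in a global alignment (181 of 322 columns), where the next pair reached 51.5%. DDX60 had an HA peak of 654 bases (168318335 to 168318988), the widest at any of the 10 genes, and a caSmad3 peak of 149 bases (168318670 to 168318818) inside it. Both covered the DDX60 start at 168318752, which lies within the gene span of 168216294 to 168325979. DDX60L (168356735 to 168480492) had an HA peak of 503 bases over its start (168480189 to 168480691) and no IRF3 peak in caSmad3 cells. The Smad3 list of caSmad3 cells had a peak of 123 bases there (168480439 to 168480561), which lay wholly inside the span of the HA IRF3 peak. With 10 kb and 1 shared base the paralogous pair thus fell into opposite classes. The contrast rests on narrow caSmad3 peaks of 1 library each, IRF3 at DDX60 and Smad3 at DDX60L. It did not hold under each alternative. Both genes were control-only when 50% of both peaks had to be shared or peaks had at least 150 bases. Both were kept with a window of 50 kb.

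ZC3HAV1 encodes ZAP, a zinc finger protein that binds CpG-rich viral RNA, and its HA peaks divided between the classes. At the ZC3HAV1 start (chromosome 7, gene 139043515 to 139109720, minus strand) the HA peak was 589 bases wide (139109326 to 139109914) and had no counterpart. It was the tenth widest of the 710 unshared HA peaks, and a further unshared HA peak of 121 bases (139109081 to 139109201) followed it inside the gene. The third HA peak, of 599 bases (139111789 to 139112387), lay 2069 bases above the gene and overlapped a caSmad3 peak of 107 bases (139111935 to 139112041). ZC3HAV1 counted as kept through this upstream site alone. A second caSmad3 peak, of 118 bases (139035829 to 139035946), lay 7569 bases below ZC3HAV1, inside the neighbouring gene ZC3HAV1L.

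TRIM25 encodes a ubiquitin ligase known as a cofactor of RIG-I and ZAP, and it had the only pair of IRF3 peaks in the set that shared over 50% of both. At TRIM25 (chromosome 17, 56887909 to 56914049, minus strand) the HA peak was 496 bases (56913916 to 56914411) and the caSmad3 peak 428 bases (56913987 to 56914414). They had 425 bases in common, 85.7% of the first and 99.3% of the second. A Smad3 peak of 112 bases in caSmad3 cells (56914189 to 56914300) lay inside both, with its centre at -195.5 bases from the start.

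MAVS (chromosome 20, 3846834 to 3876118, plus strand) differed from the other genes with an HA peak in having more and wider IRF3 peaks in caSmad3 cells. Its HA peak was 101 bases wide (3846900 to 3847000), just past the start and outside the 300-base promoter. In caSmad3 cells a peak of 260 bases (3846864 to 3847123) contained it, and a second of 117 bases (3846482 to 3846598) lay 236 bases below the gene. At MAVS the HA peak was near the smallest in its list, as 90.5% of HA IRF3 peaks were at least as wide.

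Over the 300-base promoters, an HA IRF3 peak was listed at 6 of the 9 members with a sequence (RIGI, IFIH1, DDX60, DDX60L, ZC3HAV1 and TRIM25), against 13.9% of 15842 protein-coding genes. For 4 of those 6 the promoter peak was unshared, against 7.26% of the 2205 promoters with an HA peak. Only the peaks of DDX60 and TRIM25 were shared there, and the 4 unshared promoters included ZC3HAV1. Class at the promoter and class within 10 kb therefore differed for ZC3HAV1, whose kept site was upstream, and for MAVS, whose HA peak began after the promoter window.

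Peak width is given for the same peaks, shared or not. It comes from the same calls that set the genes apart, so it is no separate support. In HA cells the 13 peaks at these genes had a median width of 342 bases (range 99 to 654), and 9 were wider than the list's median of 185. In caSmad3 cells the 7 peaks had a median of 118 bases (range 99 to 428), and 2 were wider than that list's median of 215. Of these 7, 4 were shared. The caSmad3 peaks of 99 and 118 bases lay at the neighbouring genes KAT2A and ZC3HAV1L, as the HA peak of 99 bases lay inside GCA. Among the 4 shared sites the caSmad3 peak was 0.179 times as wide as the HA peak upstream of ZC3HAV1, 0.228 times at DDX60, 0.863 times at TRIM25 and 2.57 times at MAVS. Over all 3415 shared HA peaks the median ratio to the widest overlapping caSmad3 peak was 1.52, and 15.6% were narrower in caSmad3 cells. The ratios at ZC3HAV1 and DDX60 were the lowest and the second lowest of the 3415, followed by 0.343 at a peak nearest to CXCL2. Wide HA peaks can lose more width than narrow ones. Among the 308 shared HA peaks of at least 450 bases, a limit chosen after the widths were seen, the median ratio was 1.07, which is the level to set beside DDX60, ZC3HAV1 and TRIM25; it adds no support to their rank. Width reflects how far signal passed the calling threshold along the sequence and has no error here, since each group is 1 library.

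**Figure D3:**
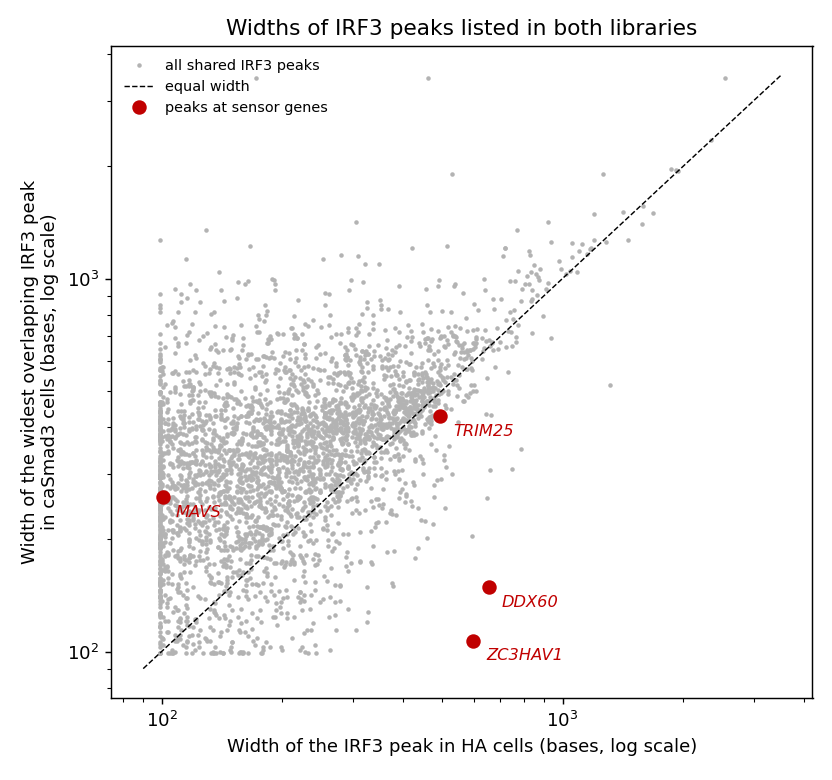
Width of each HA IRF3 peak (x axis, bases, log scale) against that of the widest overlapping caSmad3 IRF3 peak (y axis, bases, log scale) for 3415 shared peaks (grey points), with the 4 sites at sensor genes in red and a dashed line of equal width. ZC3HAV1 (599 and 107 bases) and DDX60 (654 and 149 bases) lie farthest below the line, TRIM25 (496 and 428) close to it and MAVS (101 and 260) above it.

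The kept class of DDX60, ZC3HAV1 and MAVS did not hold under each alternative, while TRIM25 was kept under all of them. When at least 50% of both peaks had to be shared, TRIM25 was the only kept gene and 7 of the 8 genes with an HA peak were control-only, against 41% of all protein-coding genes with an HA peak. With peaks of at least 150 bases, DDX60 and ZC3HAV1 were control-only and MAVS had no HA peak. The caSmad3 IRF3 peak of DDX60, at 149 bases, fell only just short of that limit. With windows of 1 kb ZC3HAV1 was control-only. No share of all protein-coding genes was computed for these settings. With windows of 50 kb, RIGI and DDX60L became kept through the sites near TOPORS, NDUFB6 and DDX60.

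Pairs of GAAA were found in genes of each class. Gaps of 1, 2 or 3 bases were allowed, those of 1 and 3 added after the sequences had been read. Such pairs were in RIGI, IFIH1 and DDX60L (control-only) and in DDX60 and TRIM25 (kept). TLR3 and EIF2AK2, with no HA peak, also had a pair, while ZC3HAV1 and MAVS (kept) had none. The ISRE core, GAAA followed by any 2 bases and GAAA again, searched on both strands of the 300-base promoters, was found in 5 of the 9 (IFIH1, DDX60, DDX60L, TLR3 and EIF2AK2), against 3.18% of 15842 promoters. IFIH1 had 3 matches, of which 2 overlap (-159 to -150 and -153 to -144 from the start) and the third lies at -21 to -12. DDX60 had matches at -88 to -79 and -53 to -44, and DDX60L at -80 to -71 and -50 to -41. All 7 matches in these 3 promoters lay inside an HA IRF3 peak. In caSmad3 cells the narrower IRF3 peak of DDX60 still contained its match nearer the start and not the farther one, and the Smad3 peak of DDX60L contained the nearer one as well. TLR3 (match at -4 to 5) and EIF2AK2 (-6 to 3) carried the core across the start with no peak of any list within 10 kb. A match is a run of letters and was not tested as a binding site.

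After the sequences had been read, pairs with a gap of 1 base (GAAANGAAA, in 2.8% of promoters) or 3 bases (in 2.6%) were searched too. RIGI then had a pair of each kind, at -203 to -195 and -143 to -133, and TRIM25 had a pair 1 base apart at -3 to 5. The RIGI pairs lay inside its HA IRF3 peak, and the TRIM25 pair inside both its HA and its caSmad3 IRF3 peak. DDX60 (-58 to -50) and DDX60L (-55 to -47) each had a pair 1 base apart that overlaps an ISRE core. With all 3 gaps allowed, 7 of the 9 promoters had a pair, against 7.66% of all promoters. The added gaps were chosen on these same promoters, so that comparison supports nothing about them. ZC3HAV1 and MAVS had no pair at any of the 3 gaps. ZC3HAV1 thus had an unshared HA peak of 589 bases over a promoter window without any such pair.

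The kappa B motif of NF-kB was found in RIGI and IFIH1, both control-only and both at -76 to -67 from the start, where 6.36% of promoters hold it. Of the Smad motifs, the palindrome GTCTAGAC was in none of the 9 (0.221% of promoters) and the short element CAGAC in 5 (44.1%). The 5 were DDX60, DDX60L, ZC3HAV1, TLR3 and EIF2AK2. At DDX60L the CAGAC (168480599 to 168480603) lay outside the Smad3 peak, and TRIM25, which also had a Smad3 peak, had no CAGAC in its promoter window. The AP-1 motif TGANTCA (5.75% of promoters), the NRF1 motif (8.57%) and the ETS motif CCGGAAG (14.2%) were in none of the 9. By base composition, TRIM25 (72.3% G or C) and MAVS (71.7%) were above the median of all promoters (62.7%), as was EIF2AK2 (72.3%). RIGI (60.3%), ZC3HAV1 (55%), IFIH1 (50.7%), DDX60 (49.7%), DDX60L (47.7%) and TLR3 (40.3%) were below it. Over all promoters the medians were close, at 62.3% for those with an unshared HA peak and 64% for those with a shared one.

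**Figure D4:**
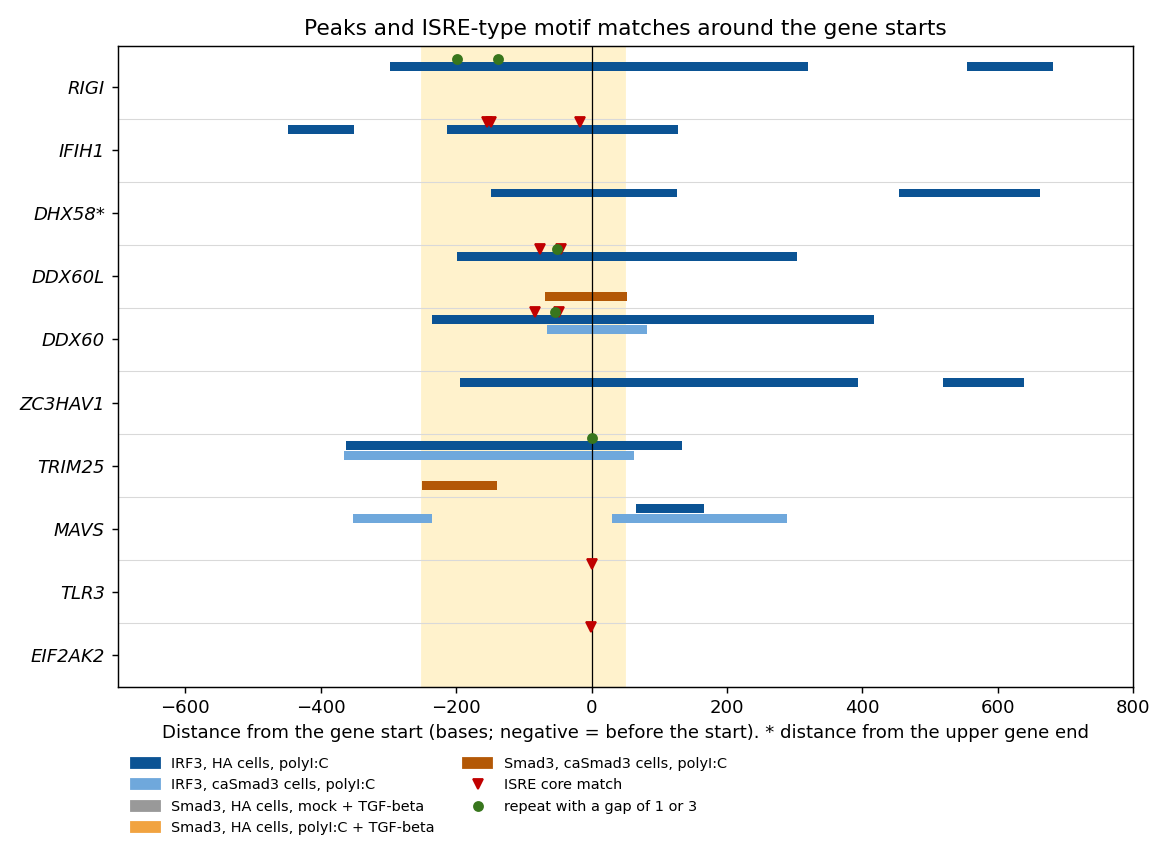
Peaks (bars coloured by library) and motif matches (red triangles, ISRE core; green circles, GAAA pairs with a gap of 1 or 3) around each gene start, by distance in bases; the shaded band is the 300-base promoter, and DHX58, drawn from its upper gene end, was not searched. The matches of RIGI, IFIH1, DDX60L, DDX60 and TRIM25 lie within the span of dark blue HA IRF3 peaks, while TLR3 and EIF2AK2 have a match and no bar. The TRIM25 match and the DDX60 matches nearer the start also lie within light blue caSmad3 IRF3 peaks.

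Smad3 peaks at these genes are given by list, beside the share of all protein-coding genes. The lists held 353 peaks (HA cells, mock and TGF-beta), 786 (HA cells, polyI:C and TGF-beta) and 6041 (caSmad3 cells, polyI:C). With 10 genes, the counts were not tested against those shares. After mock transfection and TGF-beta 0 of 10 had one, where 0.918% of protein-coding genes did. With polyI:C and the same TGF-beta, 1 of 10 had one (2.53% of protein-coding genes), a peak of 122 bases 6385 bases below MAVS (3840328 to 3840449). In caSmad3 cells 3 of 10 had one, near the 19.9% of protein-coding genes. These were the peaks at DDX60L and TRIM25 described above and a peak of 99 bases 3196 bases below MAVS (3843540 to 3843638). None of the 4 Smad3 peaks was wider than the median of its list. Only at TRIM25 did Smad3 and IRF3 of caSmad3 cells overlap, over 112 bases.

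The 10 kb limit fell between a MAVS Smad3 peak at 6385 bases, the ZC3HAV1 and DHX58 caSmad3 peaks at 7569 and 8641 bases on the inside, and 3 peaks near PANK2 at 12634, 12826 and 13096 bases from MAVS on the outside. EIF2AK2 had its nearest peaks 39351 and 39535 bases above, both IRF3 in caSmad3 cells and nearest to CEBPZOS. TLR3 had no peak of any library within 50 kb.

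The rest of the pathway was described with a list of 48 genes for adaptors, kinases, regulators of RIG-I and MDA5, other RNA-binding sensors and the PKR branch. IRF3 peaks were near 21 of the 48 in HA cells (43.8%) and 31 in caSmad3 cells (64.6%), of which 13 had none in HA cells; over all protein-coding genes 18.5% had a caSmad3 peak and no HA peak. Among the 10 sensors and cofactors only TLR3 and EIF2AK2 lacked an HA peak and could be of that last kind. Neither was, which makes no contrast with the pathway list. Of the 48, 3 were control-only and 18 kept, so that 14.3% of those with an HA peak were control-only, near the 9.86% of all genes. The 3 were IRF7, an interferon-inducible relative of IRF3, with a peak of 159 bases on the gene, OAS1, which makes the activator of RNase L, with 140 bases at 5297 bases from the gene, and TICAM1, the adaptor of TLR3, with 99 bases at 21 bases. All 3 were narrower than the HA median.

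The 6 kept pathway genes with the widest HA peak are described by the widest peak in either library within 10 kb, which leaves out their other peaks. PPP1R15A, whose product guides the phosphatase that reverses PKR's action on translation, had widths of 589 (HA) and 494 bases (caSmad3), but it had 4 HA peaks and 1 caSmad3 peak in reach. The RNA helicase genes ZNFX1 and DDX3X had 495 and 568, and 434 and 446; a second shared site at ZNFX1 went from 362 to 223 bases (ratio 0.616). TKFC, an enzyme gene whose product restrains MDA5, had 475 and 511. The stress-response transcription factor genes DDIT3 and ATF4 had 429 and 410, and 380 and 420. The caSmad3 to HA width ratio was 0.839 at PPP1R15A, beside 0.863 at TRIM25 and 2.57 at MAVS. DDX60 and ZC3HAV1 have the lowest ratios of all shared peaks, so setting other genes beside them has an outcome fixed in advance. No difference was tested.

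Genes with the same pattern as RIGI and IFIH1 were sought as protein-coding genes with a control-only HA peak within 1 kb of a gene end and no peak of the other 4 lists within 10 kb. There were 131 outside the members, including GCA, which counts through the peak it shares with IFIH1. The 5 with the widest such peak were IFIT2 (2071 bases), CCL5 (762), IFIT3 (655), IFIT1 (627) and OASL (472), between which the 618 bases of RIGI fall below IFIT1 and above OASL. IFIT1, IFIT2 and IFIT3 are neighbours, so they are not 3 independent sites.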

How the data were processed

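IRF3 or Smad3 was precipitated from BT549 chromatin, and each of the 5 libraries has its own peak list from the authors. The deposited values are positions in bases, with no score. Per the submitters' processing notes, the tools include MACS2 2.1.0 and Bowtie2 2.2.2.6, with the build hg38; for thresholds, input control and duplicates the sources used here give nothing. Groups came from the labels.

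Starts were converted to count from 1. Genes, spans and promoters came from RefSeq (GRCh38.p14). All 10 members matched, and 15842 of 20033 protein-coding genes had a promoter of 300 bases. The gene table has no exons, so positions within genes are given without exon or intron. Peaks were assigned within 10 kb of the span and called shared with 1 common base (Python 3.11.15, pandas 2.3.3; alignments with Biopython 1.88). Assignment was tested on simulated data. Motif shares by promoter class have 95% Clopper-Pearson intervals (scipy 1.17.1), which cover counting error only. No test was made between groups, because each holds 1 library; depth is unknown.

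The members and lists were chosen with earlier results of these data known. The text names all 10 members, each control-only gene of the pathway list, its 6 kept genes with the widest HA peak, and the 5 widest genes of like pattern. The alternatives were windows of 1, 5 and 50 kb, gene ends only, nearest gene only, peaks of at least 150 bases, an overlap of 50% of both peaks and a gap of up to 500 bases.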

Additional observations from a re-analysis of the deposited data

How the results depend on the processing

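Of 82 values recomputed under the alternatives, 67 stayed within 1.5 times the main count and 15 did not. With 50% of both peaks required, 7 members were control-only and 1 kept, 1 of 13 HA peaks was shared, and 6 pathway genes were control-only. With peaks of at least 150 bases, 1 member was kept, 1 of 9 HA peaks was shared, 2 members had an IRF3 peak in caSmad3 cells, and 0 had a Smad3 peak in caSmad3 cells or in HA cells given polyI:C. With a window of 50 kb, 2 members were control-only, 8 had an IRF3 peak and 5 a Smad3 peak in caSmad3 cells. With 1 kb, 3 members had an IRF3 peak in caSmad3 cells. With 1 kb or 5 kb, 0 had a Smad3 peak in HA cells given polyI:C. Each of these settings takes in fewer or more peaks or overlaps by construction. A share of all protein-coding genes was recomputed only for the control-only class under the 50% overlap, at 41% of those with an HA peak. The other counts have no such share beside them and are not a result about the members. RIGI and DDX60L were control-only under each of these settings except the 50 kb window, IFIH1 and DHX58 under all of them, and TRIM25 was kept under all of them. The number of reads behind a peak is unknown, so no setting can show how near an unlisted site was to being called.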

Other observations

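The ISRE core that IFIH1 and DDX60L carry was more frequent in promoters with an unshared HA IRF3 peak than with a shared one. Across all promoters the core was counted anywhere in the sequence, and its position relative to the peak was not tested. It was in 27 of 160 promoters with an unshared HA peak (16.9%, 95% Clopper-Pearson interval 11.4 to 23.6) and in 67 of 2045 with a shared peak (3.28%, 2.55 to 4.14). Promoters with no HA peak held it in 409 of 13637 cases (3%, 2.72 to 3.3). DDX60 is among the 67, and EIF2AK2 and TLR3 are among the 409. The ETS motif CCGGAAG, absent from the 9 sensor promoters, was in 22.5% (16.3 to 29.8) of the unshared, 29.5% (27.5 to 31.5) of the shared and 11.8% (11.3 to 12.4) of the other promoters. The NRF1 motif, also absent from the 9, was in 15.6% (10.4 to 22.2), 17.4% (15.8 to 19.1) and 7.16% (6.74 to 7.61). These shares are descriptions of 1 pair of libraries, neighbouring genes can share a promoter, and no test was made.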
